A study of Mus musculus with 4 samples.

Results

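The type I interferon-stimulated genes are 34 genes that cells switch on in response to interferon alpha and beta. They were chosen by name, as 30 inducible effectors and 4 transcription factors that regulate them (Irf1, Irf7, Irf9 and Stat2), and were followed here in mouse embryonic stem cells with and without Trim28. Of the 34 genes, 30 had a probe set listed with that gene alone, out of 18820 genes tested: 26 effectors and all 4 regulators. Oas1g, Parp9 and Dtx3l were listed only on probe sets shared with another gene, and Ifi44 was not analysed here.

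Interferon alpha and beta bind a shared receptor of Ifnar1 and Ifnar2, whose kinases Jak1 and Tyk2 activate STAT proteins. Stat2 and Irf9 are parts of the complex that binds the interferon-stimulated response element, and the induced genes encode proteins that block viral entry, translation and replication. Interferon gamma uses another receptor, of Ifngr1 and Ifngr2 with Jak1 and Jak2, and acts largely through the gamma-activated sequence and through Irf1. Pluripotent stem cells are known for a weak interferon response, and Trim28 is known as a co-repressor of endogenous retroviruses.

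The wild-type group (KAP_WT, genotype wild type) and the knockout group (KAP_KO, genotype KAP1 fl/fl) held 2 samples each, titled biological replicates, and KAP1 is another name of Trim28. All 4 samples were labelled with 4-OH-tamoxifen, the inducer of the conditional deletion. The treatment protocol names vehicle as well, so whether both groups had the same exposure is not settled. All were grown on irradiated mouse embryonic fibroblasts, so RNA of these feeder cells may be present in both groups. The labels give neither the Cre transgene nor its promoter, nor whether the groups were 1 line before and after deletion or separate lines, so differences between lines or clones and the loss of Trim28 itself cannot be told apart. Total RNA was measured on Affymetrix Mouse Gene ST arrays, 1 array per sample, as log2 expression. The number of arrays limits the precision, and an exact permutation test of a single gene cannot go below a two-sided p of 0.333 with 2 against 2 samples. Adjusted p-values are therefore those of limma over all 18820 genes, where each gene's spread is moderated towards that of all genes. They measure the spread between these samples, and the labels do not say whether these came from separate cultures. Trim28 itself, read first as a check of the labels, stood at 11.29 and 11.37 in wild-type cells against 8.97 and 8.92 in knockout cells, and fell by 2.38 (SE 0.09, adjusted p = 3.39e-05).

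Where the start of a gene was known, the bases around it were searched for the core letters of both elements, since these are what interferon-activated factors bind. Promoter windows of 300 bases, from 250 before to 50 after the start site, were taken from RefSeq on GRCm38.p6 and were found for 25 of the 34 genes. Oas1b, Oas2, Usp18, Mx1, Mx2, Rtp4, Parp9, Parp14 and Ifi27 had no window in that table. The interferon-stimulated response element was searched as GAAA, any 2 bases and GAAA again and the gamma-activated sequence as TTCNNNGAA, on both strands, with overlapping matches counted separately. The windows below, each on the gene's strand, show the response element core in capitals for a gene that rose with separate matches (Ifit3), for the classical tandem arrangement (Isg15) and for a gene that did not pass the test although its window holds the core (Oas1a). The effector with the largest rise (Oasl2) has no match in its window and is shown without capitals. For Irf1 the capitals mark the gamma-activated sequence core.
Ifit3, chr19:34583279-34583578, plus strand: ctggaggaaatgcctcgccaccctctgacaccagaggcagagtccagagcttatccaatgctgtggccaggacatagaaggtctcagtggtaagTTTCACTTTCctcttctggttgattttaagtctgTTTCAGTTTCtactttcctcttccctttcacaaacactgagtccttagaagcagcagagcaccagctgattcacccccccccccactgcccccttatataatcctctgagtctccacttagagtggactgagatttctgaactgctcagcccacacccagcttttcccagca
Isg15, chr4:156200769-156201068, minus strand: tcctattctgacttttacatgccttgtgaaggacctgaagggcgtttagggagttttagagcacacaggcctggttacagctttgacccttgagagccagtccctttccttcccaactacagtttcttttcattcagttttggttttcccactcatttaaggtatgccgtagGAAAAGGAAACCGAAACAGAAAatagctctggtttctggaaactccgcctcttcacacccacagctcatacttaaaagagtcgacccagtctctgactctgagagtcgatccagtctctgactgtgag
Oas1a, chr5:120907476-120907775, minus strand: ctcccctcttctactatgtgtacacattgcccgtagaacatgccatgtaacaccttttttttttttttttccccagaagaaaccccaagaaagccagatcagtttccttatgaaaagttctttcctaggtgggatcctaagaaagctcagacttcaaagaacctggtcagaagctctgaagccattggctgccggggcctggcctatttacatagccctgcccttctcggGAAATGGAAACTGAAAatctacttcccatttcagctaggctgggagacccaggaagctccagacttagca
Oasl2, chr5:114896684-114896983, plus strand: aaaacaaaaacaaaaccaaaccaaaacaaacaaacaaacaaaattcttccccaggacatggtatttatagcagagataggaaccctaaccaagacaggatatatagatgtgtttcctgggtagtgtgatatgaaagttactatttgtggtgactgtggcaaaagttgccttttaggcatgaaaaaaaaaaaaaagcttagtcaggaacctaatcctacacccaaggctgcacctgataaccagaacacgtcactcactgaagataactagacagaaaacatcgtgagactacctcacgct
Irf1, chr11:53769764-53770063, plus strand: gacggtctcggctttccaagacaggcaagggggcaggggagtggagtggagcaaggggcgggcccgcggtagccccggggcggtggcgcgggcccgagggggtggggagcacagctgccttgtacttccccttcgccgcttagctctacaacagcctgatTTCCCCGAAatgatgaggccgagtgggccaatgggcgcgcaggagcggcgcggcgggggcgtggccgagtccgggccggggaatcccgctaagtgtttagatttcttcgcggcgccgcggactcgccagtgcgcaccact
In Ifit3 the matches begin 156 and 122 bases before the start site. Isg15 has 3 overlapping matches, the first beginning 78 bases before it, and the 2 overlapping matches of Oas1a begin 20 and 14 bases before it. The match in Irf1 begins 90 bases before the start site.

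Effectors rose more often than they fell in the knockout. Of the 26 measured, 12 rose, 3 fell and 11 did not pass an adjusted p of 0.05, while 14.2% of all tested genes were called higher and 12.7% lower (26.9% in either direction). With array medians subtracted, a scaling that lowers every change, 12 rose and 6 fell. Under that scaling 8457 of all 18820 tested genes were called, instead of 5071. The median change of the effectors was 0.39 on the log2 scale, against -0.05 over all tested genes. It was 0.24 without knockout replicate 1, 0.55 without knockout replicate 2 and 0.22 over the 6 effectors above the median level. After subtraction of array medians it was 0.22 as well, against -0.22 over all tested genes. A rise of at least 2-fold was called for 6 effectors, Oasl2, Usp18, Ifi35, Rtp4, Ifit3 and Parp14, where 4.44% of all genes met that rule. The values of the 2 groups did not overlap in 17 effectors that were higher and 6 that were lower, and these shares were 26.6% and 38.6% over all tested genes. Most effectors read low on the array: 20 of 26 lay below the median of the tested genes' mean levels (5.57) and 5 below the lower quartile (3.80), where no detection call was available. With genes below that median left out, 6 effectors remained, of which 1 rose and 1 fell, where 3934 of 9410 genes were called.

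**Figure D1:**
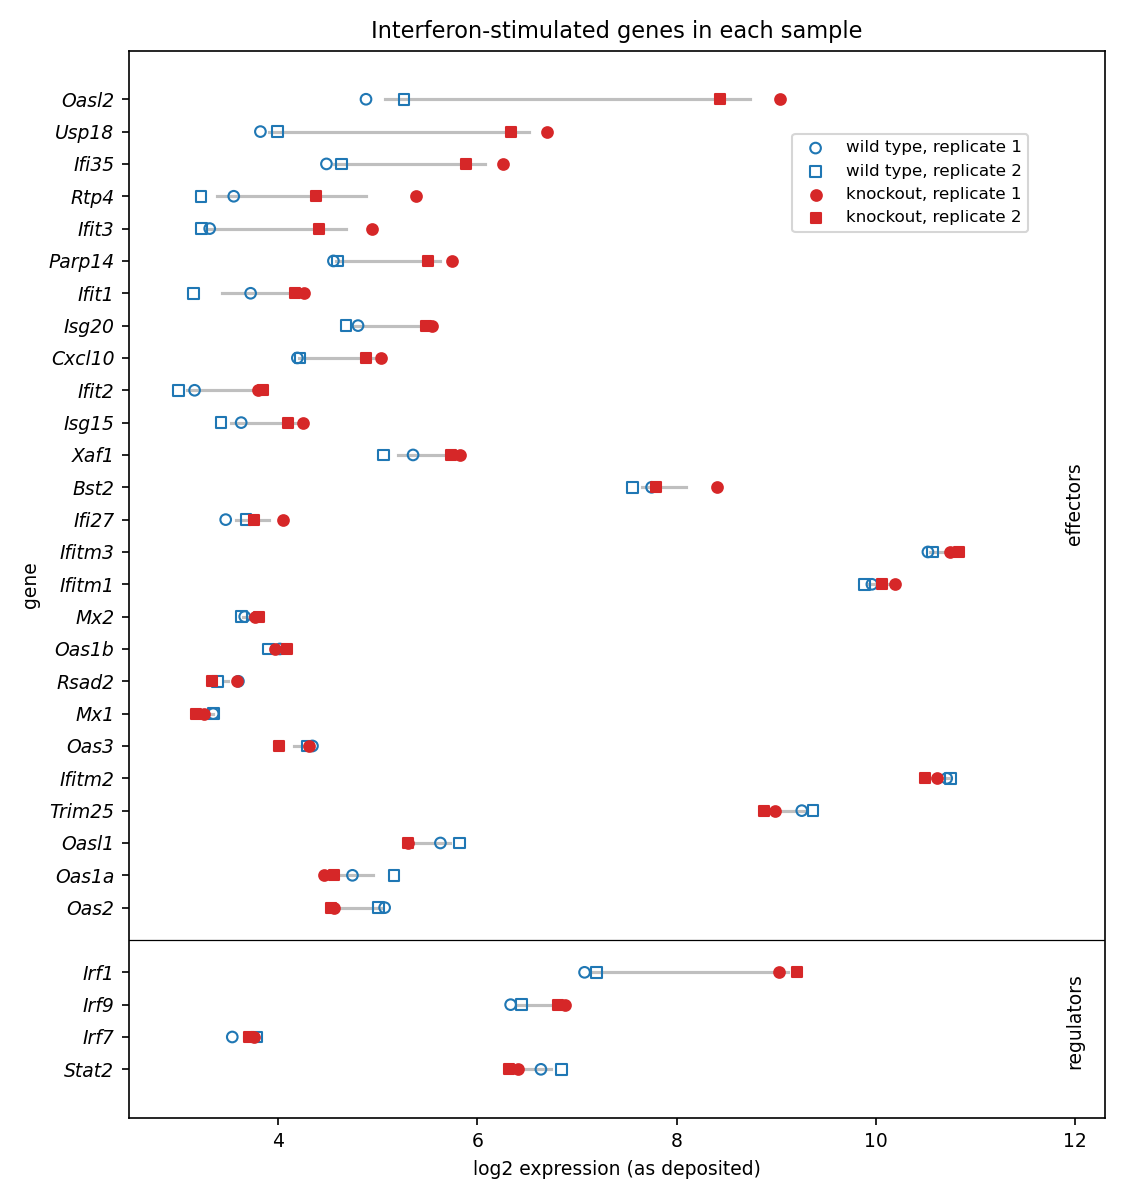
Log2 expression as deposited (x axis) of each measured interferon-stimulated gene (y axis) in the 2 wild-type samples (open blue) and 2 knockout samples (filled red), with circles for replicate 1, squares for replicate 2 and grey lines joining the group means. Oasl2, Usp18 and Irf1 show the widest gaps between groups, with knockout values from 6.34 to 9.21 and wild-type values from 3.82 to 7.20, and positions should be compared within a row only.

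The oligoadenylate synthetase family, which makes the second messenger that activates RNase L, split between its members. Oasl2, an oligoadenylate synthetase-like protein, read 4.88 and 5.26 in wild-type cells against 9.04 and 8.43 in knockout cells. The group means were 5.07 ± 0.27 and 8.74 ± 0.43 (SD, n = 2), both knockout samples were far above both wild-type samples, and the change was 3.67 (SE 0.22, limma adjusted p = 1.07e-04), a 12.7-fold higher level. Its neighbour on chromosome 5, Oasl1, known as an inhibitor of Irf7 translation, went the other way. Oasl1 read 5.63 and 5.82 in wild-type cells against 5.30 in both knockout samples, with no overlap between groups, and fell by 0.42 (adjusted p = 0.0232 in limma). Oas2 also fell, from 5.07 and 5.01 to 4.56 and 4.53 (-0.49, adjusted p = 0.00809 in limma). Oas1a read 4.75 and 5.16 in wild-type cells against 4.46 and 4.56 in knockout cells, a change of -0.45 that missed the threshold (adjusted p = 0.0666 in limma). Oas1b and Oas3 had changes of 0.07 and -0.16, and their groups overlapped. Oasl1 lost its call without wild-type replicate 2 (adjusted p = 0.123) or without knockout replicate 1 (0.0640) or 2 (0.0706), and Oas2 without wild-type replicate 1 (0.0606). Among up to 25 tested genes on each side of the Oas genes the median change was itself between -0.22 and -0.21, and with it subtracted the change of Oas2 was -0.28. Near-identical copies of Oas1 genes may share probes, so the readings of Oas1a and Oas1b are uncertain.

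The Ifit genes, which encode proteins that bind viral RNA, lie next to each other on chromosome 19 and all 3 rose. Ifit3 read 3.31 and 3.23 in wild-type cells against 4.95 and 4.41 in knockout cells, a change of 1.41 (SE 0.17, limma adjusted p = 0.00159). Ifit1 read 3.72 and 3.15 in wild-type cells against 4.26 and 4.17 in knockout cells, a change of 0.78 (SE 0.18, limma adjusted p = 0.0199). Ifit2 read 3.16 and 3.00 in wild-type cells against 3.79 and 3.85 in knockout cells, a change of 0.74 (SE 0.10, limma adjusted p = 0.00228). No group overlapped with the other in these 3 genes. Over all tested genes, 26.6% were higher without overlap and 14.2% were called higher. All wild-type values of the 3 Ifit genes stood at the low end of the array. The wild-type spread of Ifit1 mattered most: its change was 0.50 without wild-type replicate 2, with an adjusted p of 0.0602 in limma. Among the 50 tested genes around Ifit1 the median change was 0.10, with 13 higher and 2 lower.

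Ubiquitin-like modification and its removal were represented by Isg15, a ubiquitin-like protein, and Usp18, the protease that takes it off and that also damps signalling at the type I receptor. Usp18 read 3.82 and 3.99 in wild-type cells against 6.70 and 6.34 in knockout cells. The groups were far apart, with a change of 2.61 (SE 0.14, limma adjusted p = 8.62e-05), a 6.12-fold higher level. Usp18 lies on chromosome 6 among genes that were often higher as well, since 17 of the 50 tested genes around it rose and 3 fell, with a median change of 0.21. With that median subtracted its change was 2.41. Isg15 read 3.63 and 3.42 in wild-type cells against 4.25 and 4.10 in knockout cells, a change of 0.65 (SE 0.11, limma adjusted p = 0.00625). Without wild-type replicate 2 its adjusted p was 0.0581 in limma. The Isg15 gene lies on chromosome 4, but 19 of the 20 probe sets next to its probe set in number belong to genes of chromosome 17, so this reading is uncertain as a measure of Isg15 itself. Trim25, a ubiquitin ligase that activates RNA sensing, fell from 9.26 and 9.37 to 8.99 and 8.88 (-0.38, adjusted p = 0.0293 in limma). It lost its call without either wild-type replicate (adjusted p = 0.0793 and 0.147) and without knockout replicate 2 (0.129).

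Of the remaining intracellular effectors, Ifi35, a leucine zipper protein, had the largest change. Ifi35 read 4.48 and 4.64 in wild-type cells against 6.26 and 5.88 in knockout cells, a change of 1.51 (SE 0.14, limma adjusted p = 5.76e-04). Rtp4, a chaperone of G protein-coupled receptors, read 3.55 and 3.22 in wild-type cells against 5.39 and 4.38 in knockout cells, a change of 1.49 (SE 0.30, limma adjusted p = 0.0122). The 2 knockout samples of Rtp4 differed by more than 1 on the log2 scale, although both were above the wild type, and its call was lost with either wild-type sample left out (adjusted p = 0.0781 for replicate 1 and 0.126 for replicate 2). Parp14, an ADP-ribosyltransferase, read 4.55 and 4.60 in wild-type cells against 5.74 and 5.50 in knockout cells, a change of 1.05 (SE 0.11, limma adjusted p = 8.82e-04). Isg20, an exonuclease that degrades viral RNA, rose by 0.78 and Xaf1, an antagonist of the apoptosis inhibitor Xiap, by 0.57 (adjusted p = 0.00162 and 0.0146 in limma). The call of Xaf1 was lost after a further quantile normalization (adjusted p = 0.0529) and without wild-type replicate 2 (0.0842).

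The secreted effector Cxcl10, a chemokine that draws T cells, read 4.19 and 4.22 in wild-type cells against 5.03 and 4.88 in knockout cells. This rise of 0.75 (SE 0.10, limma adjusted p = 0.00203) kept both knockout samples above both wild-type samples. The membrane effectors, which act on entering or budding virions, did not pass the test. Bst2, or tetherin, read 7.75 and 7.56 in wild-type cells against 8.41 and 7.79 in knockout cells, a change of 0.45 (adjusted p = 0.150 in limma). Knockout replicate 2 lay just above the wild-type samples, and without it the change of Bst2 was 0.76 (adjusted p = 0.00731). Without knockout replicate 1 the change was 0.14 (adjusted p = 0.567 in limma). Ifitm3, Ifitm1 and Ifitm2, which hinder fusion of virions with cell membranes, had changes of 0.25, 0.20 and -0.18 (adjusted p = 0.0978, 0.180 and 0.221 in limma). They read between 9.89 and 10.84 in all samples, far from the low end of the array. Around Ifitm3, 14 of 50 tested genes fell and 0 rose, with a median change of -0.18, and Ifitm3 with that median subtracted changed by 0.42. The probe set read for Ifitm2 is numbered among those of chromosome 11, although the gene lies on chromosome 7. The other probe sets listed for Ifitm2 changed by -0.20 and -0.18. A second probe set listed for Ifitm1, numbered among those of chromosome 8 although the gene lies on chromosome 7, changed by 0.38. With the mean of both the change of Ifitm1 was 0.29 (adjusted p = 0.0865 in limma).

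Other effectors often used as hallmarks of an interferon response stayed at the low end of the array in every sample. Rsad2, or viperin, read 3.60 and 3.39 in wild-type cells against 3.59 and 3.34 in knockout cells, and its groups overlapped (adjusted p = 0.876 in limma). Its change was -0.03, with a 95% confidence interval from -0.33 to 0.26. Mx1, a dynamin-like GTPase that is defective in many laboratory mouse strains, read 3.35 in both wild-type samples against 3.25 and 3.18 in knockout cells (-0.13, adjusted p = 0.339 in limma). Mx2 had a change of 0.13 and Ifi27 of 0.33 (adjusted p = 0.323 and 0.117 in limma). After subtraction of array medians, a scaling that lowers every change, 8457 of all 18820 tested genes were called, instead of 5071. Mx1 then passed as lower (adjusted p = 0.0356 in limma), as did Ifitm2 (0.0238) and Oas1a (0.0130). Signal over background was not known for these probe sets.

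Of the 4 regulators, 2 rose, 1 fell and 1 did not pass, where 14.2% of all tested genes were called higher and 12.7% lower. Irf1, a transcription factor that is itself induced by interferon gamma, read 7.08 and 7.20 in wild-type cells against 9.03 and 9.21 in knockout cells. Both knockout samples lay far above both wild-type samples, and the change was 1.98 (SE 0.11, limma adjusted p = 8.62e-05), a 3.96-fold higher level. A second probe set listed for Irf1 read lower and changed by 0.41, from 4.18 and 4.36 to 4.52 and 4.83, and with the mean of both the change was 1.20. Irf9, the DNA-binding part of the type I complex, read 6.33 and 6.44 in wild-type cells against 6.88 and 6.81 in knockout cells, a change of 0.46 (SE 0.09, limma adjusted p = 0.0131). Stat2, its partner, read 6.64 and 6.84 in wild-type cells against 6.40 and 6.32 in knockout cells and fell by 0.38 (SE 0.11, limma adjusted p = 0.0402). Neither gene overlapped between groups, which held for 26.6% of all tested genes as higher and 38.6% as lower. Dropping any single sample kept both directions: Irf9 then changed by 0.402 to 0.509 and Stat2 by -0.482 to -0.275. Such fits leave a group with a single sample, so a lost call alone does not show that any sample carried the change. Irf9 lost its call without wild-type replicate 1 (adjusted p = 0.0857) or 2 (0.0551) and without knockout replicate 1 (0.0520), and Stat2 lost its call with any of the 4 samples left out (0.0598 to 0.184). Irf9 lies on chromosome 14 among 50 tested genes of which 18 rose and 0 fell, with a median change of 0.08. Irf7, the factor that amplifies interferon alpha production, read 3.54 and 3.78 in wild-type cells against 3.76 and 3.71 in knockout cells, with overlapping groups and a change of 0.07 (adjusted p = 0.679 in limma).

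**Figure D2:**
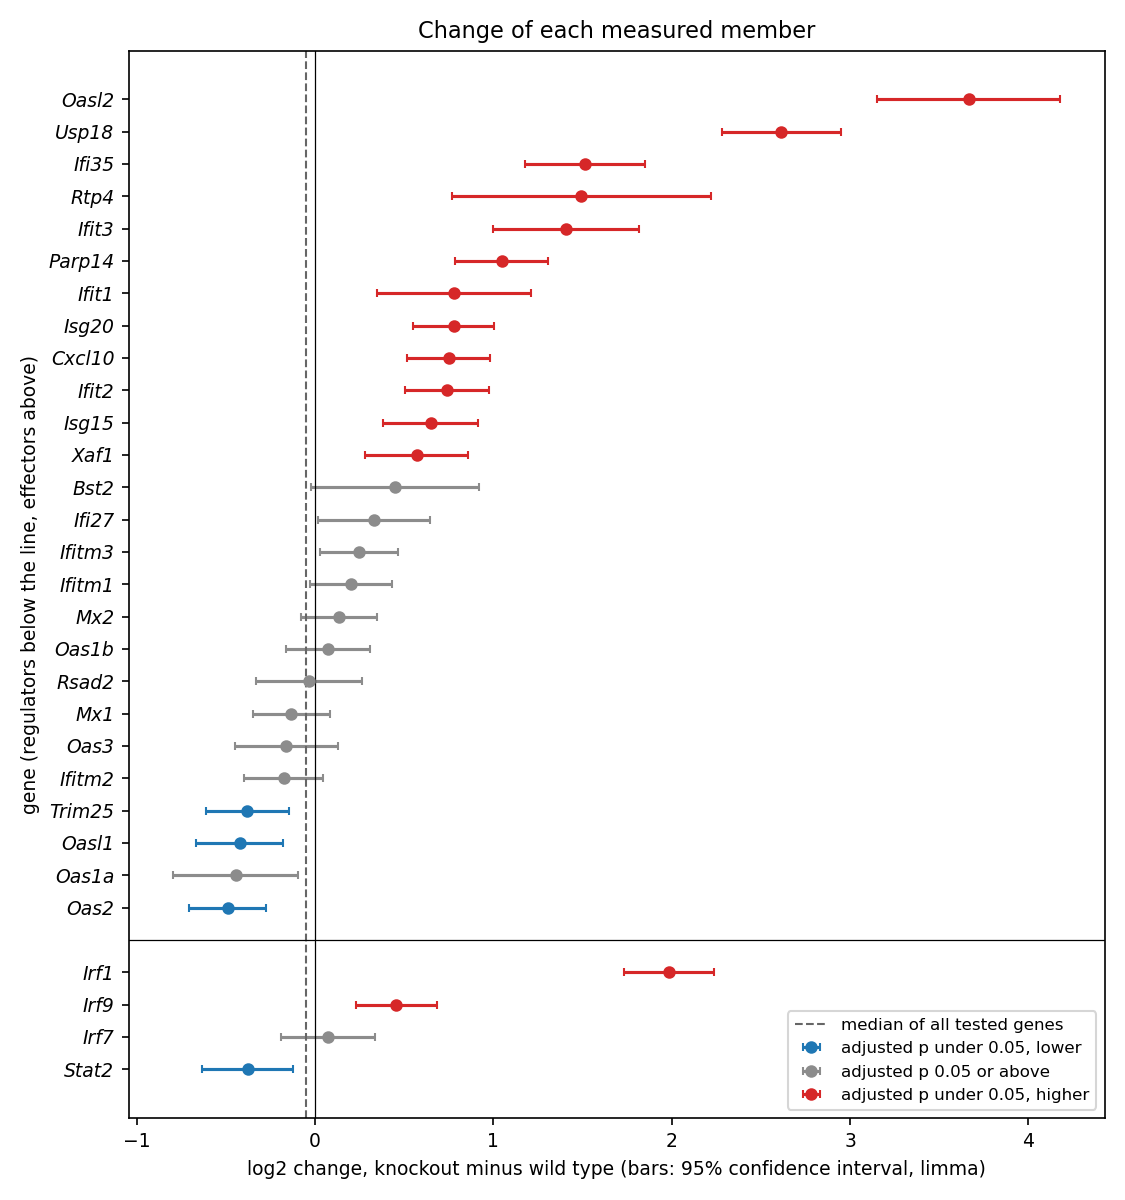
Log2 change from wild type to knockout (x axis) of each measured regulator (below the line) and effector (above it), with 95% confidence intervals from limma; colours give the call at an adjusted p of 0.05 and the dashed line is the median of all tested genes (-0.05). The 12 effectors that rose span 0.57 to 3.67, the 3 that fell lie between -0.49 and -0.38, and Irf1 (1.98) stands above the other regulators.

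The promoter windows were then set beside the changes. At least 1 response element core was found in 12 of the 25 genes with a window (48%), against 3.44% of 32851 windows in the table, and at least 2 in 7 genes, against 0.225% of windows. The gamma-activated sequence core was found in 7 of the 25 genes, against 8.3% of windows. A gene with several windows was counted by the window with most matches, while these background shares are per window. Counted per gene, 565 of 14727 other tested genes with a window held the response element core and 1329 the gamma-activated sequence core. Of 11 genes that rose and had a window, 4 held the response element core (Ifit1, Ifit3, Isg15 and Cxcl10), as did 6 of 8 that did not pass (Oas1a, Oas3, Bst2, Rsad2, Ifitm2 and Ifitm3) and 1 of 3 that fell (Stat2). Oasl2, Ifi35, Xaf1, Isg20, Ifit2, Irf1 and Irf9, which rose, had no response element core in their windows. A missing match says only that these letters are absent from these bases.

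Upstream of the effectors, 13 of the 14 measured genes for interferons themselves lay below the median gene level, and the interferon lambda gene Ifnl2 read 6.22 to 6.44 in all samples. Of these ligand genes 0 were called by limma, against 26.9% of all tested genes in either direction. At an unadjusted p under 0.05 there was 1, Ifna9, which was lower, where 18.1% of all tested genes were higher and 20.0% lower. Ifnb1, the interferon beta gene, read 3.29 and 2.77 in wild-type cells against 2.96 and 2.94 in knockout cells, a change of -0.08 with a 95% confidence interval from -0.48 to 0.32. Ifng, the interferon gamma gene, read between 3.79 and 3.82 in all 4 samples. The ligand genes changed by -0.29 (Ifna9) to 0.24 (Ifnab), and several interferon alpha genes were not measured singly because their probe sets are shared.

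Among the receptor genes, those of the interferon gamma receptor and 1 chain of the type I receptor rose. Of 6 receptor genes, 3 rose and 0 fell in limma, against 14.2% and 12.7% of all tested genes. At an unadjusted limma p under 0.05, 5 were higher and 0 lower, against 18.1% and 20.0% of all tested genes. Ifngr2 rose from 6.71 and 6.85 to 8.09 in both knockout samples (1.31, SE 0.10, limma adjusted p = 2.24e-04), and Ifngr1 rose by 0.92 (limma adjusted p = 0.00136). Ifnar1 read 7.26 and 7.33 in wild-type cells against 7.77 and 8.13 in knockout cells, a change of 0.66 (limma adjusted p = 0.0124) that lost its call without wild-type replicate 1 (adjusted p = 0.103) or 2 (0.0838). Ifnar2, its partner, had a change of 0.06 (adjusted p = 0.696 in limma). Ifnar1, Ifnar2, Ifngr2 and the shared receptor gene Il10rb neighbour each other on chromosome 16, where the median change of the 50 surrounding genes was -0.13 to -0.12.

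Among the kinase and STAT genes, 2 of 8 rose and 3 fell, where 14.2% of all tested genes were called higher and 12.7% lower. Jak2, a kinase of the interferon gamma receptor, read 4.78 and 4.28 in wild-type cells against 6.27 and 6.48 in knockout cells, a change of 1.85 (SE 0.17, limma adjusted p = 5.70e-04). Tyk2, a kinase of the type I receptor, fell from 7.66 and 7.74 to 7.01 and 7.02 (-0.68, limma adjusted p = 0.00223). Jak1, which serves both receptors, had a change of 0.15 (adjusted p = 0.298 in limma). Stat4 fell by 1.25 (limma adjusted p = 0.00889), a call lost without wild-type replicate 1 (adjusted p = 0.0935). Of 5 other interferon regulatory factor genes 1 rose: Irf2, an antagonist of Irf1 on shared sites, read 3.56 and 3.68 in wild-type cells against 5.40 and 5.53 in knockout cells (1.84, SE 0.10, limma adjusted p = 8.72e-05). Irf3, which switches on interferon beta after RNA or DNA sensing, had a change of 0.12 (adjusted p = 0.426 in limma).

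Of 13 inhibitor genes of the pathway 2 rose and 4 fell. Socs1, a feedback inhibitor of JAK kinases, changed by 0.55 (limma adjusted p = 0.0118), a call lost without wild-type replicate 1 (adjusted p = 0.0925) or 2 (0.0577), and Socs3 by -0.22 (adjusted p = 0.362 in limma). Over all 46 measured pathway genes, 8 rose and 7 fell (17.4% and 15.2%), near the shares of all tested genes (14.2% and 12.7%), with a median change of -0.03. Fewer pathway genes rose with either wild-type sample left out, and fewer of all tested genes were called in those fits too. After subtraction of array medians 7 pathway genes rose and 12 fell, where 8457 of all 18820 tested genes were called.

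**Figure D3:**
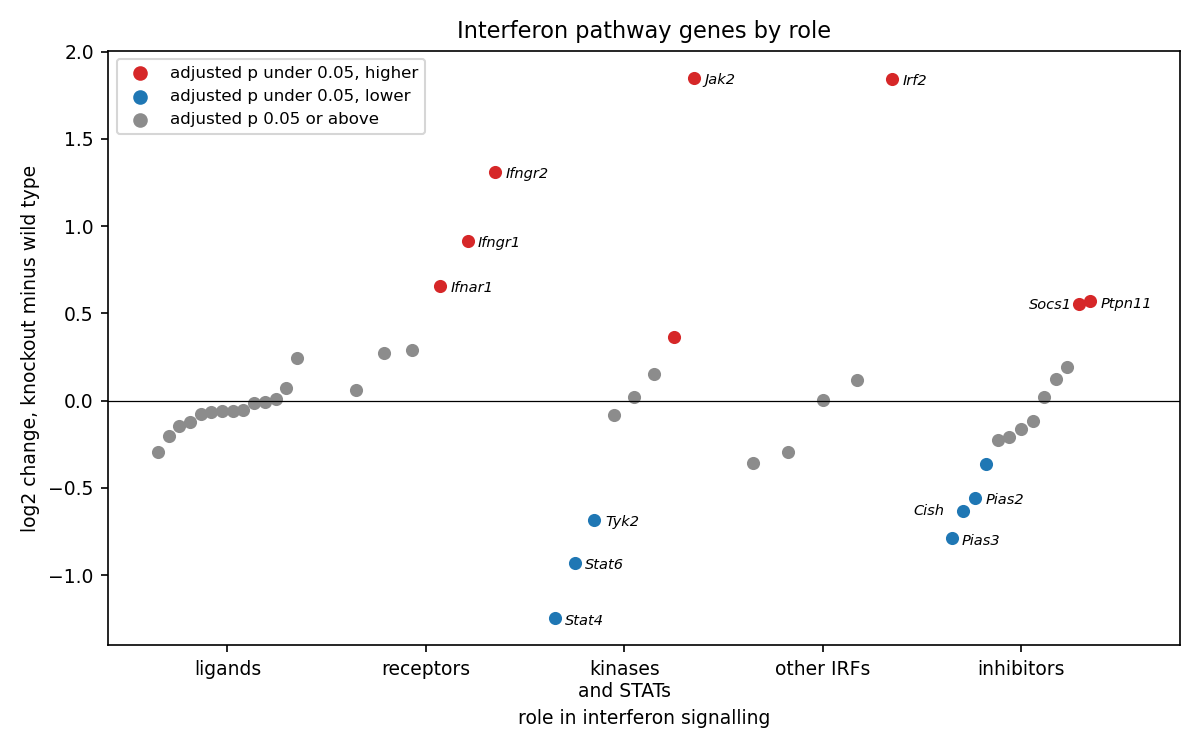
Log2 change from wild type to knockout (y axis) of the 46 measured interferon pathway genes outside the 34, grouped by role (x axis) and coloured by the call at an adjusted p of 0.05 in limma; genes that changed by at least 0.5 are named. Ligands lie between -0.29 and 0.24, while Ifngr2 (1.31), Jak2 (1.85) and Irf2 (1.84) stand highest in their groups.

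Families induced by interferon gamma as well as by type I interferon were also measured. Over all tested genes, 14.2% were called higher and 12.7% lower. Of 7 measured guanylate-binding protein genes 5 rose and 0 fell, with a median change of 1.90, led by Gbp2 (5.90) and Gbp3 (3.06). Of 13 measured genes of MHC class I antigen processing 12 rose and 0 fell, with a median of 1.61, led by the immunoproteasome gene Psmb8 (2.84) and the peptide trimming gene Erap1 (2.73). Of 4 measured immunity-related GTPase genes 1 rose, Irgm1 (4.43). In limma 0 genes of these families fell at an unadjusted p under 0.05 either, against 20.0% of all tested genes. The difference of these families from the effectors (median 0.39) was not tested.

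Most effectors read higher in 1 of the 2 knockout samples. Knockout replicate 1 read above replicate 2 in 11 of the 12 effectors that rose, by a median of 0.19, with Ifit2 the exception. Over all genes called higher, replicate 1 read above replicate 2 in 37.0%, and in the MHC class I group this held for 5 of 12. The median change of all measured effectors was 0.236 without knockout replicate 1 and 0.546 without knockout replicate 2. It was 0.385 without wild-type replicate 2, against 0.387 with all samples.

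Markers of fibroblasts, the feeder cell type, were higher in the same knockout samples. Of 19 measured, 14 rose and 0 fell in limma, with 0 lower at an unadjusted p under 0.05. Over all tested genes, 14.2% were called higher and 12.7% lower, and at an unadjusted p under 0.05 these shares were 18.1% and 20.0%. The summed unlogged level of the fibroblast markers was 1434 to 1640 in wild-type cells against 3656 to 4041 in knockout cells. Most of this sum was Vim, an intermediate filament gene also abundant in the wild type, and the other 18 markers summed to 460.3 to 510.1 against 990.4 to 1019.6. The same sum over the 12 effectors that rose was 227.3 to 232.7 against 749.8 to 1022.0. No marker reads 0 on these arrays. Among the fibroblast markers that did not pass were Lum (change 0.18), Fap (-0.08) and Thy1 (0.25). Dcn rose by 2.64, Col1a1 by 1.78 and Pdgfrb by 1.58. In the 14 that rose, knockout replicate 1 read above replicate 2 in 5, with a median difference of -0.06. The part of feeder cells in the effector changes was not tested, and more cells of a type cannot be told apart from more RNA per cell. Markers of immune cells did not rise: of 13 measured 0 were called higher and 4 lower in limma, and 0 were higher at an unadjusted p under 0.05. Their summed unlogged level was 1342 to 1495 in wild-type cells against 494 to 495 in knockout cells. Most of that drop was Laptm5, a lysosomal membrane gene of blood cells, and the other 12 summed to 353.9 to 378.3 against 266.6 to 271.1. Ptprc (CD45), their common marker, read 3.78 and 3.61 in wild-type cells against 3.57 and 3.67 in knockout cells. Stem cell markers were expressed in all samples, with Pou5f1 between 10.78 and 11.33, and 8 of 12 fell.

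**Figure D4:**
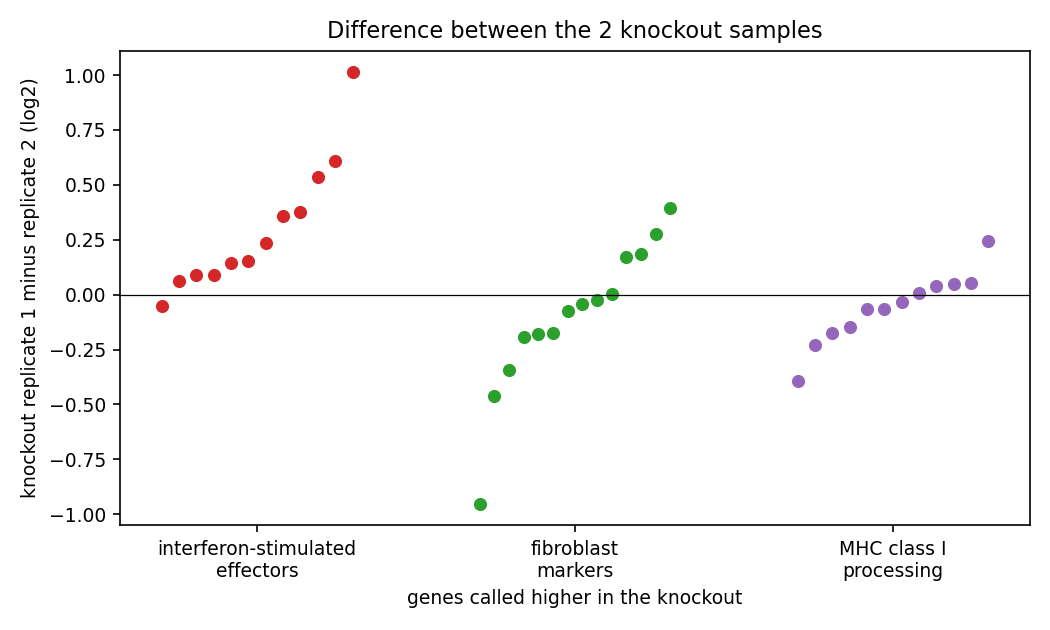
Difference in log2 expression between knockout replicate 1 and replicate 2 (y axis) for genes called higher in the knockout, as effectors (12 genes), fibroblast markers (14) and MHC class I processing genes (12), each sorted from low to high along the x axis. All effectors but Ifit2 lie above 0, while 9 of the 14 fibroblast markers and 7 of the 12 MHC class I genes lie below it.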

How the data were processed

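Log2 expression values were used as deposited by the authors, which the submitters' processing notes tie to affy and RMA. Versions and settings are not given in the sources used here. RMA subtracts background and brings arrays to a common distribution, which compresses differences of dim probe sets. No scanner intensities or detection calls were used.

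Of 35556 probe sets, 21218 were listed with 1 gene symbol in the platform annotation, 1881 with several and 12457 with none. The single-gene probe set with the highest mean was kept per gene (18820 genes). Knockout and wild type were compared with limma 3.58.1 under R 4.3.3 (lmFit, then eBayes; two-sided, Benjamini-Hochberg over all genes, threshold 0.05), with 2 residual and 4.70 prior degrees of freedom. The fit was tested on simulated data. Neighbouring genes came from the order of genes in GRCm38.p6, and up to 50 tested genes around a gene were summarised, an alternative added after seeing the data.

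Values are given per sample for members past the threshold with a change of at least 1, for the regulators, for Ifit1, Isg15, Mx1, Oas1a, Rsad2 and Cxcl10, and for pathway genes (Ifnar1, Ifnar2, Jak1, Tyk2, Irf3, Ifnb1, Socs1 and Socs3) named whatever their values. Also named were pathway genes past the threshold with a change of at least 1, and up to 2 leading genes of each comparison family. Other genes were named after their values were seen. The members and lists were chosen with earlier results of these data known. The alternatives were the replicate block, other variance priors, filters on dim genes, 2 scalings, the mean of probe sets, leaving out each sample, and other thresholds.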

Additional observations from a re-analysis of the deposited data

How the results depend on the processing

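Of the 18 members called, 9 kept their call and direction under every alternative in which they were measured (Oasl2, Usp18, Ifi35, Parp14, Ifit3, Ifit2, Isg20, Cxcl10 and Irf1) and 9 lost it under at least 1, while 6 members not called passed under at least 1; no called member changed sign. Without genes below the median level 6 effectors were left, and the 12 rising effectors became 1 and the 3 falling ones 1. The 8 rising pathway genes became 5 of 25 under that filter, where 3934 of 9410 genes were called. With array medians subtracted, which moves the median of all genes from -0.05 to -0.22, 6 effectors and 12 pathway genes were lower and 8457 genes were called instead of 5071. With a fold limit of 1.5, 0 effectors and 0 regulators were lower, 1 regulator and 5 pathway genes were higher, and 2712 genes were called. With 1 sample left out at a time, 8 to 14 effectors were higher and 1 to 2 lower, 1 to 2 regulators were higher and 0 lower, 4 to 7 pathway genes were higher and 5 to 7 lower, and 2430 to 4350 genes were called.

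The replicate numbers are not known to pair the samples: over 18820 genes the differences between replicates 1 and 2 in the 2 genotypes correlated at 0.15. In the fit with the replicate block 0 regulators were lower (Stat2, adjusted p = 0.0538), 12 effectors were higher and 4 lower, as Oas1a then passed (0.0364). With an intensity trend in the prior 0 regulators were lower (Stat2, 0.0544). Signal over background is unknown, which limits what low readings show.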

Other observations

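Beyond the 34 members, genes with and without the response element core in their window were called higher at similar shares. Of 14727 other tested genes with a promoter window, 565 held the core, and 78 of these (13.8%) were called higher and 10.4% lower in limma, against 13.9% and 13.2% of the 14162 without it. At least 2 matches were found in 35 of the 565, of which 7 were called higher (20%) and 2.86% lower. Of those 7, Irgm1 (4.43) and Gbp3 (3.06) changed most. The others were the antibody receptor and ubiquitin ligase gene Trim21 (1.47), the galectin gene Lgals9 (1.22), Ctso (0.78), Socs1 (0.55) and Vhl (0.37). Several of the 7 are themselves known interferon targets. Genes of the Ifit and Oas families with at least 2 matches were not called: Ifit3b (0.13), Ifit1bl2 (0.09) and Oas1c (-0.03). Nor were Ddx60 (0.51), Ifi205 (-0.08) and Gm12250 (-0.49). The gamma-activated sequence core was present in 1329 of the 14727 genes. Of these 10.6% were called higher, against 14.2% without it. With at least 2 such matches, 15 of 77 genes (19.5%) were called higher and 9.09% lower. These are descriptions of the windows with no test.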
